A study of Mus musculus with 6 samples.

Results

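Interleukins are secreted proteins by which cells instruct each other in inflammation and tissue repair. The genes described here are 10 cytokine genes: *Il11*, *Il6* and *Lif* of the IL-6 family, *Il1a*, *Il1b*, *Il1rn*, *Il18* and *Il33* of the IL-1 family, the IL-20 family gene *Il24*, and *Csf1*, the growth factor gene of macrophages. They were listed by name, with no threshold on their values but with earlier results of these data known, and each was read from the probe set that carries its symbol alone. All 10 were on the array, each with 1 probe set, among 18820 genes with a probe set of their own.

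EpRas cells are a mammary tumor line from the BALB/c mouse background, made from EpH4 epithelial cells by stable expression of oncogenic Ha-Ras, so both groups carry the oncogene and come from 1 line. Control cells (3 samples) were left untreated, and long-term EMT cells (3 samples) received 2 ng/ml of TGF-β1 for 14 days, a treatment that induces epithelial-mesenchymal transition (EMT). Each sample had 1 Affymetrix array (MoGene-1_1-st-v1), and the values are log2 values made with the Robust Multi-array Average (RMA). The comparison asks how the cytokine genes of a tumor cell differ once it has stayed in EMT.

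The test was passed where limma gave an adjusted p under 0.05 (Benjamini-Hochberg over 35556 probe sets) and a change of over 1.5-fold. "Rose" and "fell" are used of genes that passed alone. A level of 4.48, the 95th percentile of the mean values of 1006 olfactory receptor probe sets, served as the background level of the array. The methods call the arrayed samples triplicates, and a general statement on independent experiments does not say whether it covers the arrays. If they share a culture, the p-values reflect technical scatter alone. Control replicate 1 stood somewhat apart, with Pearson correlations to the other controls of 0.987 and 0.984 over the probe sets (not independent points) against 0.995 between these, so a difference that it moves by over 1.5 times is given with and without it. The epithelial keratin genes *Krt8* and *Krt18* lay between 12.46 and 12.88 on all 6 arrays, and *Cdh1* (E-cadherin) fell by 5.09 on the log2 scale (SE 0.31, limma adjusted p = 0.00195), as did *Epcam* and *Krt14* (-3.85 and -2.22) among 8 mammary epithelial markers, of which the other 5 did not pass. In long-term EMT cells *Cdh1* lay at 4.78, 4.31 and 4.34, near or below the background level, so the size of its fall is a bound. *Cdh1* passed with any 1 array omitted, while *Epcam* and *Krt14* did not pass without control replicate 2 or long-term EMT replicate 2 or 3. The leukocyte gene *Ptprc* lay between 4.69 and 4.83, the macrophage genes *Adgre1* and *Itgam* lay below the background level on every array, and *Cd68* and *Cd14*, which other cells also express, lay at 8.22 to 9.24 and 8.14 to 10.55.

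IL-6 family cytokines bind receptor chains particular to 1 or a few of them and signal through gp130, the shared chain made from *Il6st*, which activates JAK kinases and the transcription factor STAT3. IL-1 family cytokines signal through MyD88 to NF-κB, IL-1α and IL-1β through the same receptor, which the protein of *Il1rn* blocks. IL-11 is known as a product of TGF-β-treated cells, and it has been linked to bone metastasis of breast cancer.

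The promoters of the IL-6 family members are shown because *Il11* is the member that rose and the family is where the largest differences by value towards higher expression lay. They are the 250 bases before a start site in RefSeq (GRCm38.p6), with each match to the AP-1 motif TGANTCA (either strand) in capitals. For *Il11*, chr7:4778142-4778391 on the minus strand, the match lies 98 to 92 bases before the start. For *Lif*, chr11:4257318-4257567 on the plus strand, it lies 228 to 222 bases before it. For *Il6*, chr5:30012864-30013113 on the plus strand, it lies 249 to 243 bases before it.
*Il11*: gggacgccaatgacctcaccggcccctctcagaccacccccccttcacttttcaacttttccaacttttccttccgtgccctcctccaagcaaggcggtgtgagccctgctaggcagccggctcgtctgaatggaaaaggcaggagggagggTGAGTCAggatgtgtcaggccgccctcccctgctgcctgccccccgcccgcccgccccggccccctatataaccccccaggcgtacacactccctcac
*Lif*: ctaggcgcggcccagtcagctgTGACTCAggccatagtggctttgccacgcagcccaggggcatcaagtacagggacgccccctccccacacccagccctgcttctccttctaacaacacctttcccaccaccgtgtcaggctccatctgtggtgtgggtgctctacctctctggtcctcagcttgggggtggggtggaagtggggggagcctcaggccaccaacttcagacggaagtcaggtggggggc
*Il6*: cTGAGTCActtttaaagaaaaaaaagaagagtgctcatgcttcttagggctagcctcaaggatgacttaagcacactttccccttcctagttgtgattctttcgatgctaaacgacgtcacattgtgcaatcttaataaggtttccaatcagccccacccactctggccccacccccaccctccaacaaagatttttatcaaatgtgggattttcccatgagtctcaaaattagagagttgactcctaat
RefSeq holds another *Il11* start, whose window (chr7:4782858-4783107, minus strand) has no such match. A match is a description of letters and not of a bound site. The AP-1 letters were in a window of 5 of the 9 members with a promoter in the table (*Il11*, *Il6*, *Lif*, *Il1a* and *Il1rn*), against 6.75% of 32851 windows of all genes. A member with several starts had several windows, 13 in all, while the 6.75% counts windows and not genes. Counted by window, the AP-1 letters were in 5 of the 13. The STAT motif TTCNNNGAA (7.02% of all windows) and the Smad motif GTCTAGAC (0.167%) were in none of these windows, and the C/EBP motif TTNNGCAA (9.56%) was in those of *Il6* and *Il33*. No promoter was used for *Il24*.

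*Il11* rose and was the only member to pass. Its log2 values were 6.61, 5.64 and 5.99 on control replicates 1 to 3 and 8.30, 7.71 and 7.98 on long-term EMT replicates 1 to 3. All long-term EMT arrays lay above all control arrays, and the lowest of them was 1.10 above the highest control. The mean went from 6.080 ± 0.491 (SD, n = 3) to 7.997 ± 0.295 (SD, n = 3), which is 3.78-fold higher (log2 fold change 1.92, 95% interval 1.26 to 2.57, adjusted p = 0.0248 from limma). The size of the rise was stable when 1 array was left out, with log2 fold changes of 1.70 to 2.18, but the call was not. *Il11* passed without control replicate 1 (adjusted p = 0.00775) and in none of the other 5 such fits, with adjusted p = 0.0794 without control replicate 2, 0.0712 without control replicate 3, and 0.0964, 0.084 and 0.109 when long-term EMT replicate 1, 2 or 3 was omitted.

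**Figure D1:**
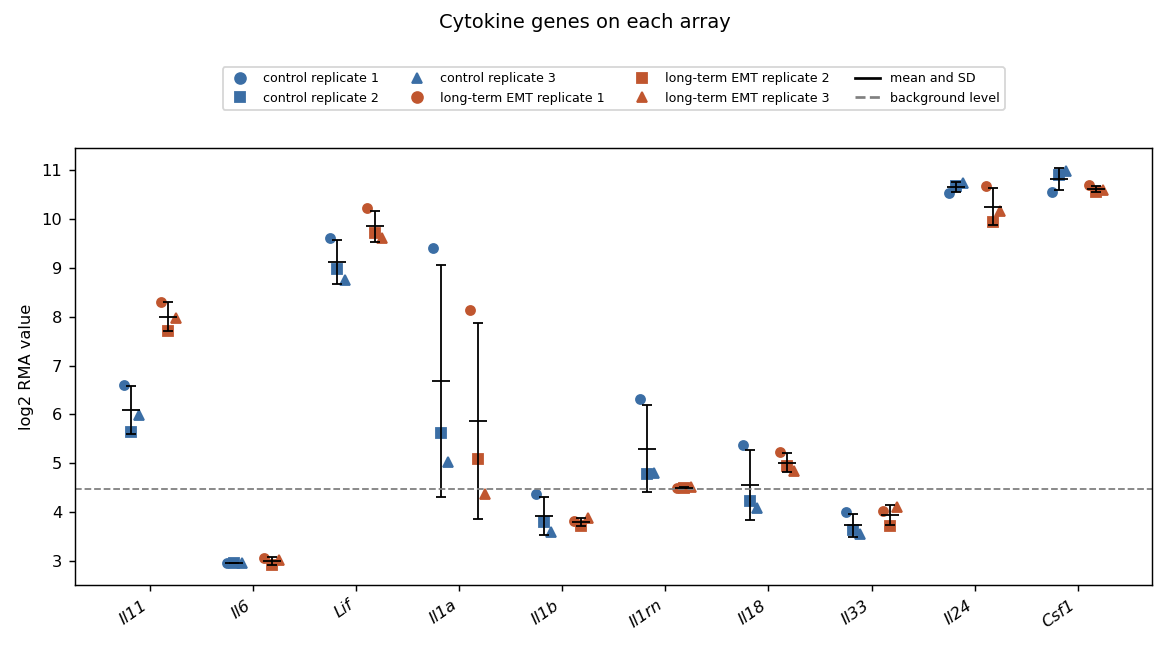
Log2 RMA values (vertical axis) of the 10 cytokine genes in control (blue, n = 3) and long-term EMT cells (orange, n = 3). Symbols give the replicate number, black bars the mean and SD, and the dashed line the background level of 4.48. For *Il11* the groups are apart, and for *Il1a* replicate 1 of each group lies far above the others.

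The profiles nearest to that of *Il11* were those of *Prag1*, *Cotl1*, which encodes an actin-binding protein, and *Dclk1*, a kinase gene. Over the 6 arrays, after each gene's control mean was subtracted, they differed from *Il11* by a root mean square of 0.17, 0.21 and 0.23 log2 units. Their own log2 fold changes were 1.87, 1.77 and 1.92.

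*Lif*, the gene of leukemia inhibitory factor, lay well above the background level in both groups. Its log2 values were 9.62, 8.97 and 8.76 on the control arrays and 10.22, 9.72 and 9.62 on the long-term EMT arrays. The lowest long-term EMT value equalled the highest control value, that of control replicate 1, so the groups touched. The log2 fold change was 0.74 (95% interval 0.11 to 1.37) and did not pass (adjusted p = 0.289 from limma, and 0.0692 without control replicate 1, where it was 0.99).

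*Il6*, the founding cytokine of the family, was below the background level on all 6 arrays, at 2.95, 2.96 and 2.96 in control and 3.05, 2.91 and 3.02 in long-term EMT cells. At this level the array gives a bound and not a measure of change. The log2 fold change was 0.04 (95% interval -0.14 to 0.22, adjusted p = 0.902 from limma).

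Of the 10 members, 1 rose and 0 fell, beside 0.993% and 0.928% of all 35556 probe sets that passed towards higher and lower expression. Of the 18820 genes read the same way as the members, 1.47% rose and 1.49% fell. The share above the background rate rests on *Il11* alone. At an unadjusted p under 0.05 from limma, 2 members lay higher (*Il11* and *Lif*) and 0 lower, beside 7.30% and 6.23% of all probe sets. The methods' t-test with a fold above 1.5 gave 1 higher and 0 lower before adjustment, beside 1.79% and 1.93%. The median log2 fold change of the members was -0.04, beside 0.02 over all genes. The groups did not overlap for 1 member upwards and 1 downwards, *Il1rn*, beside 10.5% and 8.68% of all probe sets. Of the 18820 genes, they did not overlap for 2370 upwards and 2161 downwards.

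**Figure D2:**
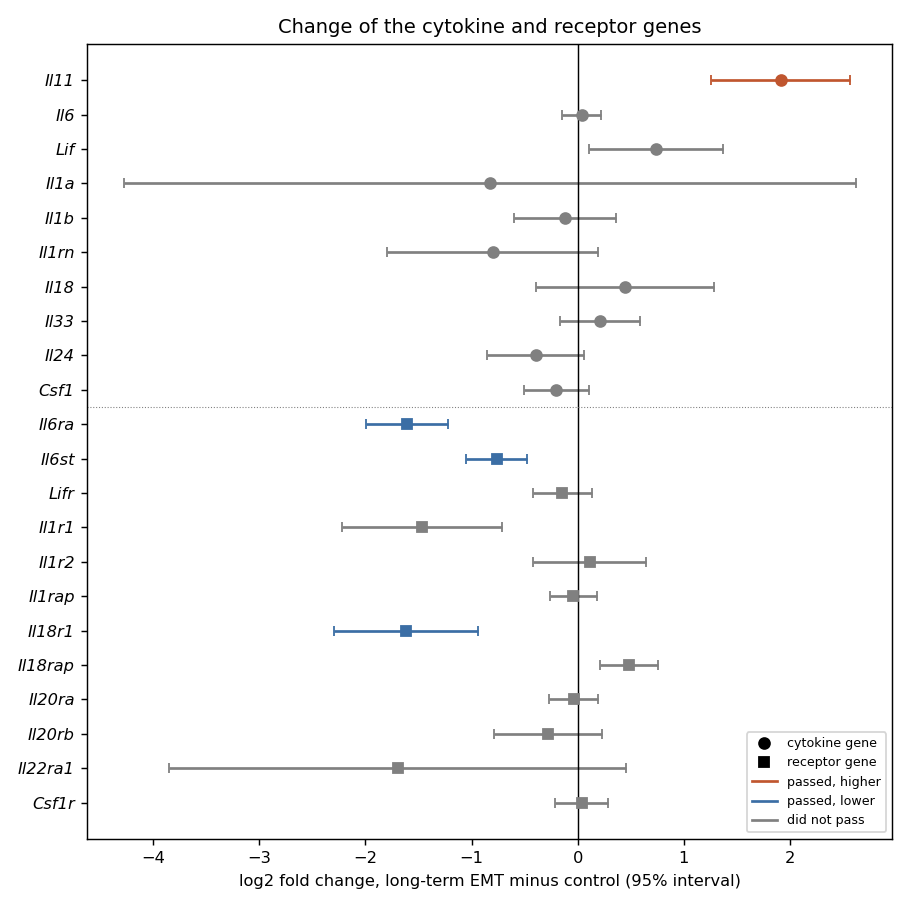
Log2 fold change of long-term EMT against control (horizontal axis, bars are 95% intervals from limma, n = 3 per group) for the 10 cytokine genes (circles) and 12 receptor genes (squares). *Il11* is the 1 gene that passed towards higher expression, and *Il6ra*, *Il6st* and *Il18r1* passed towards lower expression.

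In the IL-1 family no member passed. *Il1a*, the gene of IL-1α, varied more between replicates than between groups. It lay at 9.41, 5.62 and 5.03 on the control arrays and at 8.14, 5.08 and 4.36 on the long-term EMT arrays. Replicate 1 was the high array in both groups, by 4.09 log2 units over the mean of the other controls and by 3.42 over the mean of the other long-term EMT arrays. Among all 18820 genes, 581 exceeded a difference of 1 in the control group, 77 in the long-term EMT group and 38 in both. The log2 fold change of *Il1a* was -0.83 (95% interval -4.28 to 2.62, adjusted p = 0.877 from limma), 0.54 without control replicate 1, and -0.61 (adjusted p = 0.418) without replicate 1 of both groups, a setting chosen after the data were seen. The direction therefore turned with 1 array.

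*Il1b*, the gene of IL-1β and the neighbor of *Il1a* on chromosome 2, stayed below the background level on all arrays, with control replicate 1 the highest by 0.67 over the mean of the other controls. It lay at 4.36, 3.80 and 3.59 in control and 3.81, 3.71 and 3.87 in long-term EMT cells. The log2 fold change was -0.12 (95% interval -0.60 to 0.36), and 0.10 without control replicate 1.

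*Il1rn*, the gene of the IL-1 receptor antagonist, lay at 6.32, 4.77 and 4.80 on the control arrays. On the long-term EMT arrays it was 4.49, 4.49 and 4.51, at the background level and below every control array. The log2 fold change was -0.80 (95% interval -1.79 to 0.19, adjusted p = 0.493 from limma) and did not pass. It was -0.29 without control replicate 1 (adjusted p = 0.138), so that most of the difference came with that array.

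*Il1rn* ends a run of IL-1 family ligand genes on chromosome 2, *Il1f8*, *Il1f9*, *Il1f6*, *Il1f5* and *Il1f10*. *Il1f6* was at 6.97 on control replicate 1 and between 3.30 and 3.45 on the other 5 arrays. *Il1f9* was at 5.94 there and between 3.40 and 3.63 elsewhere. *Il1f5* was at 4.69 there, above the background level, and between 3.69 and 4.01 elsewhere. *Il1f8* and *Il1f10* lay below the background level on all arrays. *Il1f6* and *Il1f9* had log2 fold changes of -1.12 and -0.83, which did not pass, and 0.10 and -0.04 without control replicate 1. The alarm gene *S100a8*, listed below among the leukocyte markers and also used by epithelial cells, was likewise highest on control replicate 1. It lay at 8.51 there against 4.61 to 6.40 on the other arrays.

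**Figure D3:**
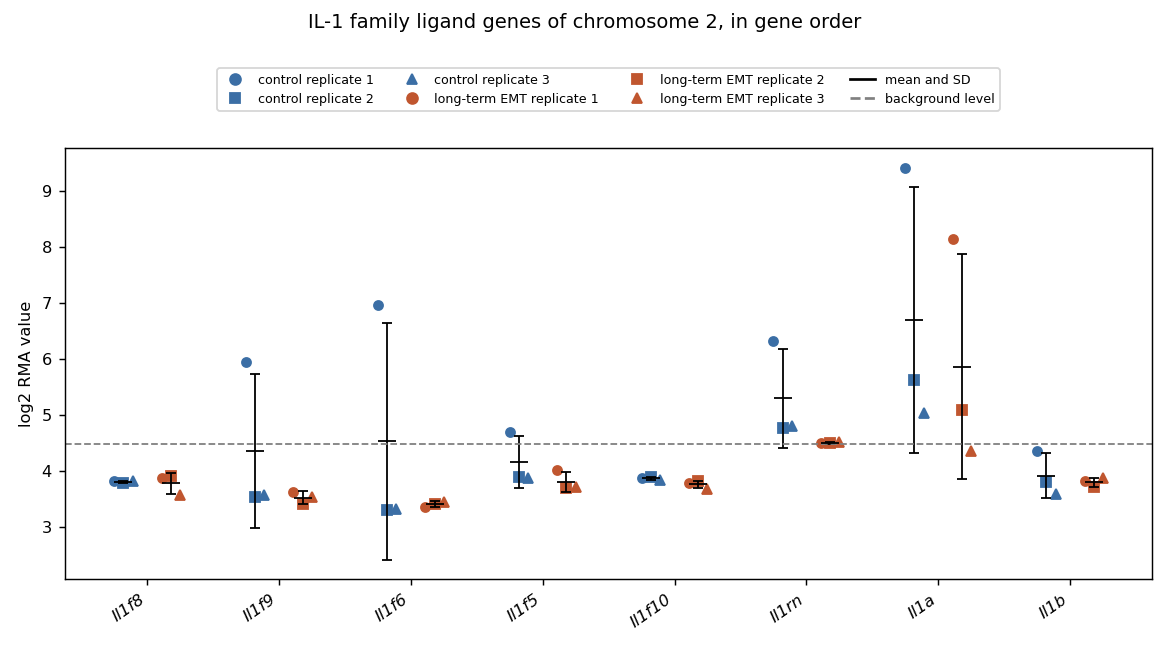
Log2 RMA values (vertical axis) of IL-1 family ligand genes of chromosome 2, where *Il1f8* to *Il1rn* are consecutive genes and *Il1a* and *Il1b* are neighbors further along. Control arrays are blue and long-term EMT arrays orange (n = 3 each), symbols give the replicate, black bars the mean and SD, and the dashed line the background level. *Il1f9*, *Il1f6* and *Il1rn* are raised on control replicate 1 alone, and *Il1a* on replicate 1 of both groups.

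*Il18*, whose product drives interferon-γ release by lymphocytes, lay at 5.38, 4.22 and 4.07 on the control arrays and 5.22, 4.95 and 4.84 on the long-term EMT arrays. All long-term EMT arrays were above the background level, and of the controls only replicate 1 was, with the highest value of all. With all arrays the log2 fold change was 0.45 (95% interval -0.39 to 1.29, adjusted p = 0.685 from limma). Without control replicate 1 it was 0.86 and passed (adjusted p = 0.0367), and without replicate 1 of both groups it was 0.75 (adjusted p = 0.0523). Since the remaining controls were below the background level, the measure that holds there is a bound. The mean of all long-term EMT arrays was 1.44-fold above that level, a lower bound for its difference from those controls. *Il33*, an alarm cytokine of barrier cells, was below the background level throughout, at 3.99, 3.63 and 3.55 in control and 4.01, 3.71 and 4.09 in long-term EMT cells.

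*Il24* and *Csf1* were far above the background level in both groups, and neither passed. *Il24* lay at 10.54, 10.67 and 10.75 on the control arrays and 10.67, 9.94 and 10.16 on the long-term EMT arrays, and the groups overlapped through long-term EMT replicate 1. Its log2 fold change was -0.40 (95% interval -0.86 to 0.06, adjusted p = 0.454 from limma), and -0.60 without that array (adjusted p = 0.124). The neighbors of *Il24* on chromosome 1, *Il20*, *Il19* and *Il10*, lay between 3.16 and 4.52 on all arrays.

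*Csf1* lay at 10.56, 10.90 and 10.99 in control and 10.69, 10.56 and 10.60 in long-term EMT cells. The log2 fold change was -0.20 (95% interval -0.51 to 0.11, adjusted p = 0.599 from limma), and the groups overlapped through control replicate 1, without which it was -0.33 (adjusted p = 0.139). *Csf1r*, its receptor gene and a macrophage marker, was near the background level in both groups, between 4.72 and 5.04.

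Among the receptor genes analysed, those that passed were all lower in long-term EMT cells. Of 14 genes listed as receptors of the member cytokines, 12 were measured, and 3 of them fell, 0 rose and 9 did not pass. The 25% that fell stand beside the 0.928% of all probe sets given above and 1.49% of the 18820 genes read the same way. The median log2 fold change of the receptor genes was -0.21. Without control replicate 1, 3 of the 12 fell as well, while 1 and 3 fell when control replicate 2 or 3 was omitted, 1, 0 and 1 when long-term EMT replicate 1, 2 or 3 was, and 2 without replicate 1 of both groups. The receptor genes *Il11ra1* and *Il1rl1* were not analysed here, so these counts say nothing of their direction.

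*Il6ra*, the private receptor chain for IL-6, fell the most clearly. It lay at 8.92, 8.36 and 8.46 on the control arrays and at 6.84, 7.05 and 7.02 on the long-term EMT arrays, with a gap of 1.31 between the groups. The mean was 3.05-fold lower (log2 fold change -1.61 ± 0.16, SE, limma adjusted p = 0.00792). It passed in 5 of 6 fits with 1 array omitted, and had adjusted p = 0.0516 without long-term EMT replicate 2.

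*Il6st*, the gp130 gene through which IL-11, LIF and IL-6 all signal, lay at 10.74, 10.46 and 10.32 in control and at 9.73, 9.75 and 9.75 in long-term EMT cells. It was 1.70-fold lower (log2 fold change -0.76 ± 0.12, SE, limma adjusted p = 0.033), with all long-term EMT arrays below all control arrays. It passed without control replicate 1 or 3 and not without any of the other 4 arrays, where adjusted p lay between 0.123 and 0.144. *Lifr*, whose product pairs with gp130 for LIF and several other cytokines of the family, was below the background level on all arrays, at 3.52 to 3.93.

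**Figure D4:**
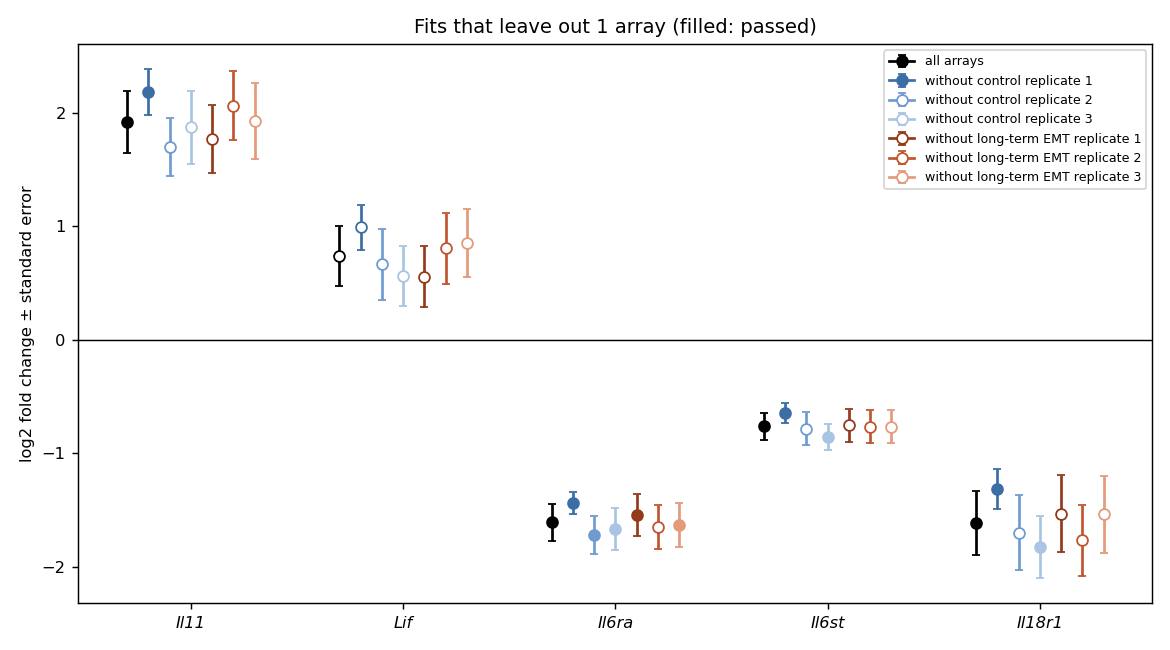
Log2 fold change ± standard error (vertical axis) of *Il11*, *Lif*, *Il6ra*, *Il6st* and *Il18r1* with all 6 arrays (black) and with each array left out (colors). Filled circles passed. The direction of each gene is the same in all 7 fits, while the calls of *Il11*, *Il6st* and *Il18r1* are lost in most of them.

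The receptor genes of the IL-1 family form a run on chromosome 1, *Il1r2*, *Il1r1*, *Il1rl2*, *Il1rl1*, *Il18r1* and *Il18rap*, and its members did not move alike by value. *Il18r1*, the ligand-binding chain for IL-18, lay at 10.29, 9.52 and 9.27 in control and 7.92, 8.39 and 7.93 in long-term EMT cells. It fell by 1.61 on the log2 scale (SE 0.28, limma adjusted p = 0.047), and by 1.32 without control replicate 1. It passed only without control replicate 1 or 3 among the fits with 1 array omitted.

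*Il18rap*, the second chain of the same receptor, was instead higher by value, at 9.36, 9.19 and 9.53 in control and 9.96, 9.79 and 9.78 in long-term EMT cells. Its log2 fold change was 0.48 (SE 0.11, limma adjusted p = 0.109) and did not pass, although the groups did not overlap. *Il1r1*, the signaling receptor gene for IL-1α and IL-1β, had values of 8.44, 7.59 and 7.33 in control and 6.70, 6.15 and 6.11 in long-term EMT cells. The groups were apart, and the log2 fold change was -1.47 (SE 0.31), but limma gave an adjusted p of 0.0856.

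The decoy receptor gene *Il1r2* and the shared chain *Il1rap* had log2 fold changes of 0.11 and -0.04. Of the receptor chains for IL-24, *Il20ra* was below the background level on all arrays, and *Il20rb* had a log2 fold change of -0.28 (adjusted p = 0.673 from limma), with -0.30 and -0.22 for its other probe sets and -0.08 without control replicate 1. *Il22ra1* was at 8.87 on control replicate 1, at 5.79 and 5.31 on the other controls and at 4.88 to 5.12 in long-term EMT cells. Its log2 fold change of -1.70 did not pass and was -0.59 without control replicate 1.

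Other ligands and receptors of these families showed little that passed. Of 10 measured genes in the list of other IL-6 family members, 0 passed with limma. At an unadjusted p under 0.05, 0 lay higher and 2 lower (20%, beside 6.23% of all probe sets). These were *Osmr*, the oncostatin M receptor gene (log2 fold change -1.48 ± 0.42, SE, limma adjusted p = 0.182), and *Ctf1*, cardiotrophin (-0.40, adjusted p = 0.166). Of 10 other IL-1 family genes, 0 passed, and 0 lay higher and 1 lower (10%) at that unadjusted p. The methods' t-test after Benjamini-Hochberg adjustment passed 0 genes in each of these lists.

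Of 28 other interleukin and growth factor ligand genes, 1 fell and 0 rose. At an unadjusted p under 0.05 from limma, 2 lay higher (7.14%, beside 7.30% of all probe sets) and 5 lower (17.9%, beside 6.23%). *Kitl*, the stem cell factor gene that supports mast cells and melanocytes, lay at 8.71, 8.23 and 8.21 in control and 6.20, 6.66 and 6.80 in long-term EMT cells. It was 3.56-fold lower (log2 fold change -1.83 ± 0.20, SE, limma adjusted p = 0.0115), and passed in 4 of 6 fits with 1 array omitted. It did not pass without control replicate 2 or long-term EMT replicate 2 (adjusted p = 0.0537 and 0.0642). A pair of genes picked after their values were seen lay near the threshold or apart between groups. *Il23a*, a subunit of IL-23, had a log2 fold change of -1.36 (SE 0.24, limma adjusted p = 0.0504), and passed without control replicate 1 or 3 (adjusted p = 0.0394 and 0.0437). *Csf2*, the GM-CSF gene, had one of 0.95 (SE 0.31, adjusted p = 0.251).

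Few genes downstream of the receptors passed. Of 24 JAK-STAT genes 0 passed with limma. At an unadjusted p under 0.05, 1 lay higher (4.17%, beside 7.30% of all probe sets) and 4 lower (16.7%, beside 6.23%). The widest differences by value were those of *Stat5a* (-0.94, adjusted p = 0.22) and *Stat2* (-0.87, adjusted p = 0.487), which were -0.60 and -0.35 without control replicate 1. Of a further pair, chosen after its values were seen, *Stat3* lay at 10.97 on control replicate 1 and between 9.97 and 10.20 on the other 5 arrays. *Socs3*, the feedback inhibitor that STAT3 induces, had a log2 fold change of 0.30 (SE 0.08, limma adjusted p = 0.148), with 0.08 for its other probe set.

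Of 19 genes known to respond to IL-6 family cytokines, 1 rose, 1 fell and 17 did not pass, with a median log2 fold change of -0.26. At an unadjusted p under 0.05 from limma 2 lay higher (10.5%) and 6 lower (31.6%), with the shares of all probe sets as given above. *Timp1*, an inhibitor of metalloproteases, rose by 0.80 on the log2 scale (SE 0.13, limma adjusted p = 0.0416) and passed in none of the fits with 1 array omitted, with log2 fold changes of 0.66 to 0.87. *Lbp*, an acute phase gene, was at 12.55, 11.17 and 10.61 in control and at 7.45, 6.96 and 6.08 in long-term EMT cells. It fell by 4.61 on the log2 scale (SE 0.56, limma adjusted p = 0.0149). It passed without control replicate 1 or 3, and adjusted p was 0.0704 when control replicate 2 was omitted and 0.0515, 0.0841 and 0.066 when long-term EMT replicate 1, 2 or 3 was. *Lcn2*, another acute phase gene, picked after its values were seen, differed by -5.11 but varied from 4.84 to 9.30 in long-term EMT cells and did not pass (adjusted p = 0.112), though it did without long-term EMT replicate 1 (-6.41, adjusted p = 0.045).

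Of 20 genes of IL-1 processing and signaling 0 passed with limma. At an unadjusted p under 0.05, 0 lay higher and 2 lower (10%, beside 6.23% of all probe sets), *Myd88* and *Tab1* (-0.30 for *Tab1*, limma adjusted p = 0.233). The widest log2 fold changes were those of *Casp4* and the adaptor gene *Myd88*, -0.80 and -0.53 (limma adjusted p = 0.624 and 0.102). Without control replicate 1 that of *Casp4* was -0.17. Of 19 NF-κB genes 0 passed. At the unadjusted p, 5 lay higher (26.3%, beside 7.30% of all probe sets) and 1 lower (5.26%, beside 6.23%). The 5 were *Ptgs2*, *Tnfaip3*, *Nfkb2*, *Rela* and *Relb*, with log2 fold changes of 0.44, 0.42, 0.40, 0.26 and 0.19. The 1 lower was *Ccl2*. The chemokine genes *Ccl2* and *Cxcl1* had the widest differences, -2.98 and -1.55 (adjusted p = 0.0935 and 0.524). *Ccl2* passed without long-term EMT replicate 1 (-3.78, adjusted p = 0.00818), and *Cxcl1* was -0.78 without control replicate 1. *Cxcl1*, like *Il1a*, was highest on replicate 1 of each group, at 10.50 and 8.68.

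Of 13 leukocyte markers measured 0 passed with limma. At an unadjusted p under 0.05, 0 lay higher and 2 lower (15.4%, beside 6.23% of all probe sets), *Lyz2* and *Cd14*. *Lyz2* had a log2 fold change of -0.57 (limma adjusted p = 0.0844) and lay above the background level on control replicate 1 alone. The linear values of the 13 markers were also summed, and the log2 of the sum lay between 9.90 and 11.39 in control and between 9.77 and 10.34 in long-term EMT cells. On every array *Cd14* and *Cd68*, which other cells also express, had the highest values, so the sum is no measure of leukocyte content. *Cd14* and *S100a8*, which epithelial cells also use, were the widest by value (-1.12 and -1.81, adjusted p = 0.368 and 0.385), and were -0.63 and -0.92 without control replicate 1. Of these markers, 5 lay below the background level on all arrays.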

How the data were processed

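Mouse EpRas cells, 3 control and 3 long-term EMT samples, were profiled from 150 ng of total RNA each on mouse gene arrays of Affymetrix. The deposited log2 values were computed by the authors by RMA (Robust Multi-array Average). The tool in the submitters' processing notes is Affymetrix Expression Console, whose version is not given in the sources used here. RMA corrects background and normalizes by quantiles, and it compresses differences of dim probe sets. All 35556 probe sets were used as deposited and fitted with limma 3.58.1 in R 4.3.3 (lmFit, eBayes), with no block and Benjamini-Hochberg adjustment over all of them. Of these, 21218 have 1 gene symbol in the platform annotation, 1881 several and 12457 none, and genes were named from the first alone, by the probe set with the highest mean. The fit was tested on simulated data. Groups came from the sample titles. The number of arrays limits the precision.

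The members and gene lists were chosen with earlier results of these data known. Named genes are all members and measured receptors, up to 6 genes that passed per other list (or, where none did, those 2 with the largest difference), and the 3 profiles nearest to each member that passed. Some further genes were named after their values were seen. The alternatives were another variance prior, treat, the methods' t-test, other folds, a replicate block, renewed normalization, a filter on dim probe sets, other readings of a gene and leaving out arrays. Promoters are from RefSeq (GRCm38.p6).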

Additional observations from a re-analysis of the deposited data

How the results depend on the processing

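Each member kept its direction under every alternative except *Il1a* and *Il1b*, which without control replicate 1 had log2 fold changes of 0.54 and 0.10 (with 1 array left out, -1.97 to 0.54 and -0.28 to 0.10). The number of members higher was 0 (1 with all arrays) with the methods' t-test after Benjamini-Hochberg adjustment and with treat, where *Il11* had adjusted p = 0.161 and 0.164, and it ranged from 0 to 2 when 1 array was left out. Over the alternatives other than treat and unadjusted p, that of *Il11* ranged from 0.00775 to 0.161. The members lower were 0 throughout. Over all probe sets, 638 were higher and 688 lower with the methods' t-test (unadjusted), 43 and 26 after adjustment, 51 and 84 with treat, 194 higher at a fold above 2, and 107 to 472 higher and 98 to 482 lower when 1 array was left out, against 353 and 330. With the replicate block they were 256 and 278, *Il11* passed (adjusted p = 0.0117), *Lif* had adjusted p = 0.0522, *Il1r1* (0.0257), *Osmr* (0.0319), *Il23a* (0.0241), *Csf2* (0.0449) and *Lcn2* (0.0359) passed, and *Il6st* (0.0735), *Il18r1* (0.0865), *Kitl* (0.0564) and *Timp1* (0.0554) did not. Deviations from the group means correlated at 0.19, 0.02 and 0.25 between arrays of the same number, and 4 of 6 arrays correlated best with their own number. These values do not settle whether arrays of the same number belong together. The numbers were not taken as pairs because no pairing is stated. Each member has 1 probe set, so other readings of a gene left its value as it was. The dim filter left out *Il6*, *Il1b* and *Il33*. Small differences turned sign without 1 array for *Il1rap* (0.0033 and 0.01, range -0.0933 to 0.01), *Il20ra* (range -0.11 to 0.0283), *Il1f6* (range -1.74 to 0.10), *Csf1r* (-0.03, range -0.035 to 0.085) and *Il1r2* (-0.13), and without replicate 1 of both groups, added after the data were examined, for *Il1b* (0.10), *Il1r2* (-0.16), *Il1rap* (0.055), *Il20ra* (0.06), *Il20rb* (0.04) and *Il1f6* (0.13). The cause was not tested.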
